A study of Mus musculus with 6 samples.

Results

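The genes described here are those of the kidney's renin-angiotensin pathway together with the peptidases of the proximal tubule brush border and tissue kallikrein: Ren1, Agt, Ace, Agtr1a, Mme, Enpep, Anpep and Klk1. Each was matched to the array by its symbol in the platform annotation. A gene was represented by the probe set with that symbol alone and the highest mean intensity over the 6 arrays. Of these 8 genes, 7 were matched, out of 18193 genes on the array, and all 7 passed the filter on low intensity. The annotation names no probe set for Ren1, the gene of renin itself, which is not analysed here.

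RNA came from kidneys of male FVB/N mice aged 6 to 8 weeks and weighing 22 to 26 g, and was hybridised to 6 Affymetrix arrays. The vessels of the kidney on 1 side were clamped for 0, 45 or 60 min and then released, which is ischemia followed by reperfusion. Kidneys were collected on day 1 or day 3 afterwards. Each combination of clamp time and day has 1 array, so the 0 min kidneys, the unclamped controls, also number 1 for each day, and every comparison with 0 min on a day shares that array. All groups share the strain, the sex, pentobarbital anesthesia and the flank incision. The labels do not say whether an array holds RNA of 1 animal or of several.

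Angiotensinogen, the product of Agt, is cut by renin to angiotensin I, and angiotensin-converting enzyme (Ace) cuts that to angiotensin II, which acts on the receptor encoded in rodents mainly by Agtr1a. Angiotensin II and its fragments are then broken down by membrane peptidases that stand in large amounts on the brush border of the proximal tubule. Among them are aminopeptidase A (Enpep), aminopeptidase N (Anpep) and neprilysin (Mme). Klk1 encodes tissue kallikrein, a protease of the distal nephron that releases kinins, the peptides that Ace and neprilysin also degrade.

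Most of the genes had lower intensities after the 60 min clamp than after the 45 min clamp. In 5 of the 7 genes (Ace, Mme, Enpep, Anpep and Klk1) both 60 min kidneys had a lower intensity than both 45 min kidneys, an order found in 18.8% of the 12734 genes tested, and in 0 of the 7 were they above both (25.5% of all genes). In 4 genes (Agt, Ace, Anpep and Klk1) the 60 min kidney was the lowest of its day on both days, as in 19.1% of all genes tested. Anpep differed most between 60 and 45 min, by -0.79 ± 0.18 on the log2 scale (± SE from limma). Agt was lower in all 4 clamped kidneys than in both 0 min kidneys, and Agtr1a followed no common order on the 2 days. The differences were moderate: of 63 differences between single arrays (7 genes, 9 comparisons), 1 reached 2-fold. Over all genes tested, a 2-fold difference in either direction was found in 9.89% and 6.1% for 60 against 0 min (day 3, then day 1). The same shares were 2.29% and 4.63% for 45 against 0 min. Between 60 and 45 min they were 8.36% and 2%. For day 3 against day 1 the shares were 3.11%, 3.24% and 4.1% at 0, 45 and 60 min.

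None of these differences passed the test over all genes. Limma called 0 of the 12734 genes, and 0 of the 7, at an adjusted p under 0.05 in each of its 4 contrasts (0% of genes called). At an unadjusted p under 0.05 it counted 1858 genes (14.6%) for clamped against 0 min and 1661 (13%) for 60 against 45 min. Day 3 against day 1 gave 1153 (9.05%), and the clamp effect differed between days by that measure in 282 genes (2.21%). Differences are therefore given as sizes with the standard error of the fit, which has 2 residual degrees of freedom, and their precision is limited by having 6 arrays. With so few, 0 calls and an adjusted p near 1 do not show that a difference was absent, least of all for the change of the clamp effect. For that change the 45 and 60 min kidneys of a day stood as replicates, so its standard error holds the difference between them. Log2 differences are of intensity plus 16.

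The 6 arrays were alike in overall brightness, with median intensities between 81.4 and 95.3. Actin control probe sets at the 3' and 5' ends of the transcript, whose ratio depends on RNA quality, differed by log2 0.77 (0 min), 1.03 (45 min) and 0.49 (60 min) on day 3. On day 1 they differed by 1.12, 1.10 and 1.08 in that order. The 60 min day 3 array, which gave the lowest values of Agt, Ace, Anpep and Klk1, thus also had the lowest actin ratio of 3' over 5' signal. The same ratio of Gapdh was log2 -0.37 (0 min), -0.33 (45 min) and -0.37 (60 min) on day 3, so there this array was level with the 0 min array. On day 1 the Gapdh ratios were -0.23, -0.22 and -0.20 in that order. The part of RNA quality in the values of these genes was not tested. The kidney label is borne out by Slc34a1, the phosphate transporter gene of the proximal tubule, with intensities of 13046 to 24702. In bulk tissue, fewer cells of a type and less RNA per cell cannot be told apart.

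**Figure D1:**
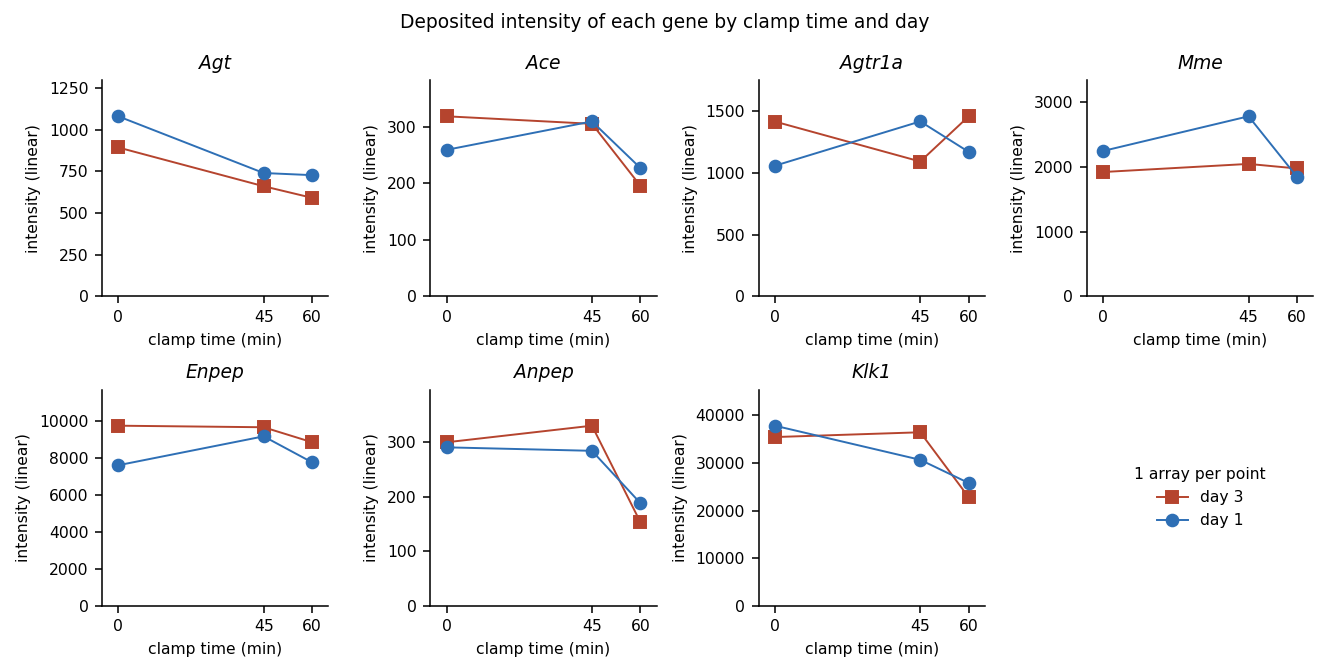
Linear intensity of the 7 genes (vertical axis, from 0) against clamp time in minutes (horizontal axis), with 1 array per point; red squares are day 3 and blue circles day 1. Anpep and Klk1 are lowest at 60 min on both days, Agt is lower at 45 and 60 min than at 0 min, and the 2 lines of Agtr1a cross.

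Promoter sequence of the 4 genes that were lowest at 60 min on both days is shown so that their starts can be compared. The sequences are the 250 bases before the gene's start from RefSeq, build GRCm38.p6, 5' to 3' on the gene's own strand. RefSeq windows were found for 6 of the 7 measured genes, with 2 for Ace, of which the upstream one is shown. The Agt window is chr8:124569707-124569956 (minus strand), the Ace window chr11:105967698-105967947 (plus), the Anpep window chr7:79848211-79848460 (minus) and the Klk1 window chr7:44225110-44225359 (plus). Capitals mark matches on either strand to TATAAA (the TATA box core), GGGCGG (the GC box), CCAAT (the box of that name) or GTTAAT (part of the site of the tubule factor HNF1).
Agt: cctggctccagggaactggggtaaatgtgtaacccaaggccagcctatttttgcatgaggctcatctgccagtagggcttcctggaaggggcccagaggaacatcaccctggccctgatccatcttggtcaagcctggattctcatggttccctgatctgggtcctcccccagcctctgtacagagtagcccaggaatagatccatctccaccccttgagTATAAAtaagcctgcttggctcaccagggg
Ace: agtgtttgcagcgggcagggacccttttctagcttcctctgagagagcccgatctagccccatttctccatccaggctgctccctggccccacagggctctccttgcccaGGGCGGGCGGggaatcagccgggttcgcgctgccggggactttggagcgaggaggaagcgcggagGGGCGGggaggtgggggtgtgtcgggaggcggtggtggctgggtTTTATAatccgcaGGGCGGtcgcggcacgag
Anpep: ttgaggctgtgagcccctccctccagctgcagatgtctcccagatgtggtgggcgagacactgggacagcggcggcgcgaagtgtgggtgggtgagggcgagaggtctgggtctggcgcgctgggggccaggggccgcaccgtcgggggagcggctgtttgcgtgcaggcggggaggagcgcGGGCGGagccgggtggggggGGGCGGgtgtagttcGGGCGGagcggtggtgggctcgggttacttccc
Klk1: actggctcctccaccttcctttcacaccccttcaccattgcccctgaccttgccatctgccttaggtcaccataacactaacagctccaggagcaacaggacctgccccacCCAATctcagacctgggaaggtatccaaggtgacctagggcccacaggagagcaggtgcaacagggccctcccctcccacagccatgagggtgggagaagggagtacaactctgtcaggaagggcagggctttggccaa
The 4 starts do not share a motif among those searched. Agt has TATAAA from base -30 and no GC box, whereas Anpep has 3 GC boxes, from bases -68, -48 and -33, and no TATAAA. Ace has 4 GC boxes, a pair of them overlapping from bases -140 and -136, and TATAAA on the other strand at -31. Klk1 has a single CCAAT, from base -139. Of all 32851 windows of this length in the table, 12.4% hold TATAAA, 33.8% CCAAT, 32.7% GGGCGG and 6.43% GTTAAT. The last of these was found in 0 of the 9 windows of the measured genes. Matches describe letters only.

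Agt, the substrate of renin, is made in the liver and also in the proximal tubule. Its intensities were 893, 660.4 and 591 at 0, 45 and 60 min on day 3. On day 1 they were 1079.6, 739.6 and 727. All 4 clamped kidneys lay below both 0 min kidneys, with no overlap, an order found in 8.94% of all genes tested; 0 of the 7 genes showed the opposite order, which 10.9% of all genes did. The fitted difference between clamped and 0 min kidneys was -0.53 ± 0.12 on the log2 scale (95% interval -0.85 to -0.21, limma adjusted p = 0.217), with an unadjusted p = 0.00833. Within a day, the log2 difference from the 0 min kidney was -0.43 at 45 min and -0.58 at 60 min on day 3, and -0.54 and -0.56 on day 1. Most of the difference was therefore already there at 45 min, and 60 against 45 min added -0.09 ± 0.14 (95% interval -0.46 to 0.28, limma adjusted p = 0.802). With 1 array left out at a time, the clamped difference stayed between -0.56 and -0.50. The hepatocyte genes Alb and Ttr were dim (16.2 to 230.4 and 20.5 to 133), Ahsg and Apoa1 lay below the intensity filter, and Apoc3 was brighter (393 to 2957). For clamped against 0 min the fitted log2 differences of the hepatocyte genes were -1.12 ± 0.52 (Alb), -0.90 ± 0.32 (Ttr) and -0.38 ± 0.35 (Apoc3). In the 45 min day 3 kidney, where Agt differed by -0.43 from 0 min, they differed by -0.06 (Alb), 0.03 (Ttr) and 0.80 (Apoc3). The part of hepatocyte genes in the Agt values was not tested.

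Ace, which encodes the converting enzyme, is carried by the proximal tubule brush border and by vessels. Its day 3 intensities were 318 at 0 min, 305 at 45 min and 195 at 60 min. The day 1 kidneys had 259, 309 and 227. The 60 min kidney was the lowest of each day, while the 45 min kidney was the highest on day 1 and lay between the others on day 3. Both 60 min kidneys were below both 45 min kidneys, and the fitted log2 difference of 60 against 45 min was -0.51 ± 0.18 (95% interval -0.97 to -0.06, limma adjusted p = 0.369). By day it was -0.60 on day 3 and -0.42 on day 1. Clamped against 0 min, the difference was -0.16 ± 0.15 (limma adjusted p = 0.650), and -0.25 after quantile normalization or median centring. Leaving out the unclamped kidney gave 0.03 for that of day 3 and -0.36 for that of day 1. A second, dimmer Ace probe set gave log2 differences of 60 against 45 min of -0.83 on day 3 and -0.37 on day 1.

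Agtr1a encodes the main angiotensin II receptor of rodents, found on vessels, mesangium and tubules. Its intensities were 1414, 1091 and 1457 at 0, 45 and 60 min on day 3, against 1057, 1415 and 1168 on day 1. The 45 min kidney was the lowest of day 3 and the highest of day 1, so the 2 days did not share an order of clamp times. The fitted log2 difference was 0.06 ± 0.21 for clamped against 0 min (95% interval -0.47 to 0.59, limma adjusted p = 0.922), and -0.03 after centring each array on its median. For 60 against 45 min it was 0.07 ± 0.24 (95% interval -0.54 to 0.68, limma adjusted p = 0.915). The clamp effect on day 3 minus that on day 1 was -0.44 ± 0.40 (limma adjusted p = 1).

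**Figure D2:**
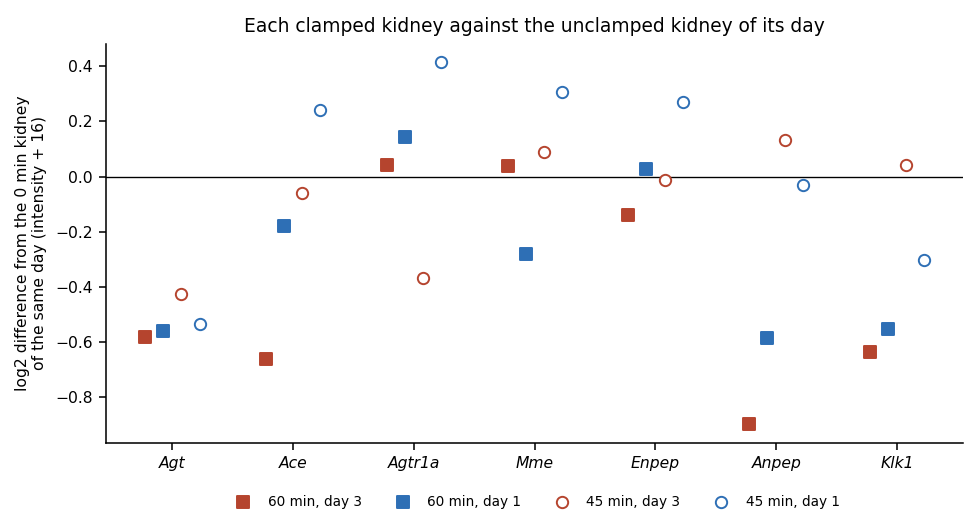
Log2 difference in intensity plus 16 (vertical axis) between each clamped kidney and the 0 min kidney of its day for the 7 genes; squares are 60 min, open circles 45 min, red day 3 and blue day 1. The differences of a day share 1 unclamped array. All 4 Agt points lie below 0 (-0.58 to -0.43), and the lowest point is Anpep at 60 min on day 3 (-0.90).

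Mme encodes neprilysin, a brush border peptidase that degrades kinins, natriuretic peptides and angiotensins. Its intensities were 1917, 2042 and 1972 at 0, 45 and 60 min on day 3. On day 1 they were 2242, 2776 and 1842. The day 3 values were nearly level, and on day 1 the 45 min kidney was the highest and the 60 min kidney the lowest. The fitted log2 difference was 0.04 ± 0.16 for clamped against 0 min (95% interval -0.37 to 0.45, limma adjusted p = 0.933), -0.05 after median centring, and -0.32 ± 0.19 for 60 against 45 min (95% interval -0.80 to 0.16, adjusted p = 0.502). By day, 60 against 45 min was -0.05 on day 3 and -0.59 on day 1, and without the 60 min day 1 array the fitted value was -0.10. A second, dimmer probe set had -0.28 on day 3 and -0.52 on day 1, and for 45 against 0 min it had 0.60 and 0.38.

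Enpep encodes aminopeptidase A, which removes the first residue of angiotensin II. Its day 3 intensities were 9758 at 0 min, 9673 at 45 min and 8861 at 60 min. The day 1 kidneys had 7615, 9180.3 and 7770.5. Its arrays spanned the narrowest log2 range of the 7 genes (0.36), and both 60 min kidneys lay below both 45 min kidneys. The fitted log2 difference was 0.04 ± 0.13 for clamped against 0 min (95% interval -0.31 to 0.38, limma adjusted p = 0.923), turning to -0.05 after median centring. For 60 against 45 min it was -0.18 ± 0.15 (95% interval -0.58 to 0.21, adjusted p = 0.625), and -0.0708 after quantile normalization. At each clamp time Enpep was higher on day 3 than on day 1, by log2 0.36, 0.08 and 0.19 at 0, 45 and 60 min. It was the 1 gene of the 7 with both clamped kidneys above 0 min on day 1 and both below on day 3, as 7.52% of all genes were.

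Anpep encodes aminopeptidase N, which trims angiotensin III and many other peptides. Its intensities were 300.3, 331 and 153 at 0, 45 and 60 min on day 3. On day 1 they were 291, 285 and 188. The 0 and 45 min kidneys lay close together on both days, and both 60 min kidneys lay below both 45 min kidneys (18.8% of all genes). Both 60 min kidneys were below both 0 min kidneys in Agt, Ace, Anpep and Klk1, as in 23.5% of all genes. The log2 span of Anpep, 1.03, was the widest of the 7 genes. The fitted log2 difference of 60 against 45 min was -0.79 ± 0.18 (95% interval -1.25 to -0.34, limma adjusted p = 0.306), with an unadjusted p = 0.00652. By day it was -1.03 on day 3, the single 2-fold difference among these genes (2.4% of all genes tested were as low in that comparison), and -0.56 on day 1. Clamped against 0 min, Anpep differed by -0.35 ± 0.15 (adjusted p = 0.387). Against 0 min, the 45 min kidney differed by 0.13 on day 3 and -0.03 on day 1, and the 60 min kidney by -0.90 and -0.59.

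Anpep alone among the 7 spanned at least 1 log2 unit, and for it the nearest profiles were looked up. The genes whose log2 profile over the 6 arrays lay nearest to that of Anpep were Kbtbd11, Susd2 and Acadm, with root mean square distances of 0.04, 0.06 and 0.07. Acadm encodes a mitochondrial enzyme of fatty acid oxidation, and its 60 against 45 min difference was -0.66. Among the 7 genes themselves, Klk1 (0.14) and Ace (0.17) lay nearest to Anpep, and Agtr1a (0.48) farthest. With 6 arrays these distances describe the profiles and carry no test.

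Klk1, tissue kallikrein, is a product of the connecting tubule and distal nephron and not of the brush border. Its intensities were 35448, 36449.8 and 22790.4 at 0, 45 and 60 min on day 3. On day 1 they were 37834, 30665 and 25786. Both 60 min kidneys lay below both 45 min kidneys (18.8% of all genes) and below both 0 min kidneys (23.5%). The 45 min kidney was level with the 0 min kidney on day 3 (log2 difference 0.04) and lower on day 1 (-0.30). The fitted log2 difference was -0.46 ± 0.17 for 60 against 45 min (95% interval -0.91 to -0.02, limma adjusted p = 0.377), made up of -0.68 on day 3 and -0.25 on day 1. For clamped against 0 min it was -0.36 ± 0.15 (95% interval -0.75 to 0.02, adjusted p = 0.362). After quantile normalization these differences were -0.28 for 60 against 45 min and -0.19 for clamped against 0 min, and averaging its probe sets gave -0.30 for 60 against 45 min. Mice carry a large family of closely related kallikrein genes, and the brightest Klk1 probe set is of a type whose probes may also match relatives, so its signal may hold some of theirs. Of 3 other Klk1 probe sets, the next brightest had -0.67 on day 3 and -0.28 on day 1, and a dimmer one (1455 to 2084) had -0.23 and -0.39. The dimmest, with intensities of 133 to 213, had 0.31 on day 3 and -0.17 on day 1.

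**Figure D3:**
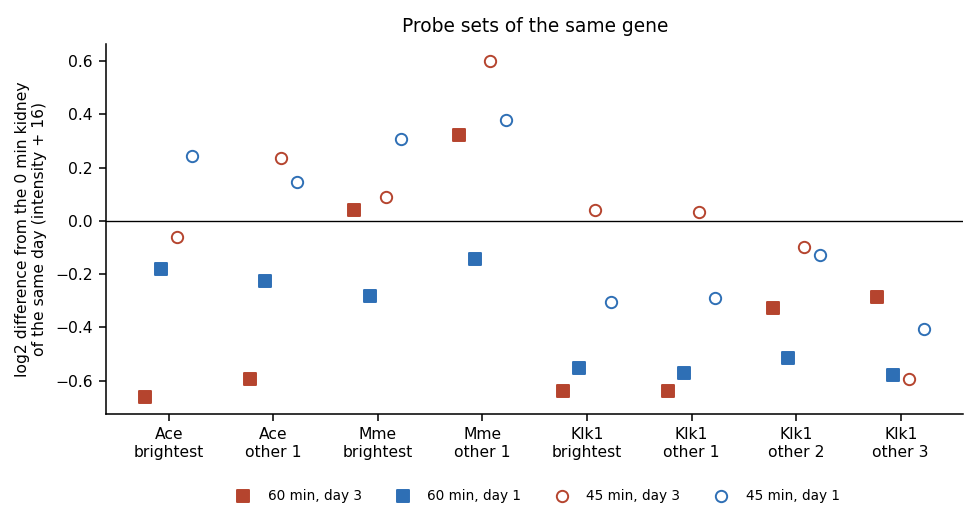
Log2 difference in intensity plus 16 from that day's 0 min kidney (vertical axis) for every single-symbol probe set of Ace, Mme and Klk1, the brightest of each gene first; squares are 60 min, open circles 45 min, red day 3 and blue day 1. The 2 brightest Klk1 sets nearly coincide, and all 4 Klk1 sets lie below 0 at 60 min on both days.

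**Figure D4:**
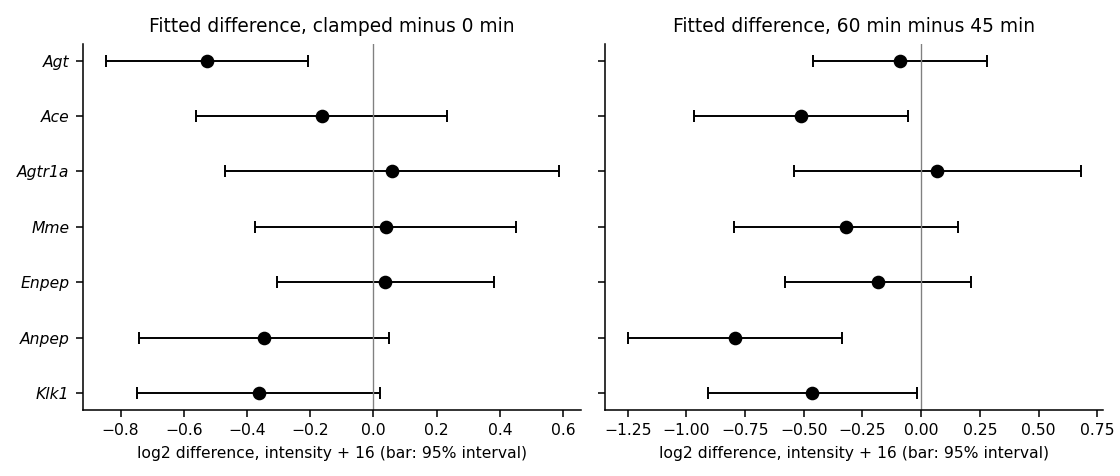
Fitted log2 difference from limma (horizontal axis) with its 95% interval (bars) for the 7 genes, clamped minus 0 min on the left and 60 min minus 45 min on the right. The interval lies below 0 for Agt on the left and for Ace, Anpep and Klk1 on the right; these intervals are not adjusted for the number of genes tested.

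Without adjustment, 1 of the 7 genes (Agt) was lower in clamped than in 0 min kidneys at a limma p under 0.05, beside 5.03% of all genes tested. For 60 against 45 min, 3 of the 7 (Ace, Anpep and Klk1) were lower by that measure, beside 5.29% of all genes. Fitted differences were below 0 in 6 of the 7 genes for 60 against 45 min (43.3% of all genes) and in 4 for clamped against 0 min (48.5%). The 7 genes had a median log2 difference of -0.16 for clamped against 0 min, where all genes tested had 0.01. For 60 against 45 min the medians were -0.32 and 0.05. Centring each array on its median moved the median of all genes by -0.17 for the 60 min day 3 kidney against its 0 min kidney, so that differences below 0 became larger on that array. In the other 3 clamped kidneys the shift was -0.09 or smaller in size.

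By day, day 3 minus day 1, Agt was lower at each clamp time (log2 differences of -0.27, -0.16 and -0.29, shortest clamp first), as 18.9% of genes tested were. Its fitted difference was -0.24 ± 0.12 (limma adjusted p = 0.602). Enpep was higher at each clamp time, as 13.6% of genes were, with 0.21 ± 0.13 (adjusted p = 0.655). The other 5 genes did not move in 1 direction at all clamp times. Their fitted differences were between -0.19 ± 0.15 for Mme and 0.12 ± 0.19 for Agtr1a, with limma adjusted p from 0.736 to 0.992. For Mme it was -0.0043 when its probe sets were averaged. The clamp effect on day 3 minus that on day 1 ranged from -0.44 ± 0.40 for Agtr1a to 0.13 ± 0.50 for Klk1 (limma adjusted p = 1 for each gene).

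Other genes of the angiotensin pathway were for the most part level or too dim to test. Of 17 listed genes, 13 were on the array and 7 passed the intensity filter, and limma called 0 of them in any contrast. Their median log2 difference was -0.05 for clamped against 0 min and 0.05 for 60 against 45 min, close to all genes. Among the angiotensin receptor genes, Agtr1b, Agtr2 and Mas1 lay below the filter (intensities of 0.98 to 47.8), as did the mast cell protease genes Cma1, Cpa3 and Ctsg (1.71 to 43.5). Atp6ap2, the prorenin receptor, differed by -0.15 ± 0.13 between clamped and 0 min kidneys, and Agtrap, a binding protein of the angiotensin receptor, by -0.16 ± 0.15. Small as these differences were, in both genes all 4 clamped kidneys lay below both 0 min kidneys, as in Agt and in 8.94% of all genes tested. Prep, which encodes prolyl oligopeptidase, had 603 and 607 in the day 3 kidneys clamped for 0 and 45 min and 964 in the one clamped for 60 min. The day 1 kidneys had 549, 560.1 and 778.5 in that order. Both of its 60 min kidneys lay above both 45 min kidneys, as in 25.5% of all genes tested. The log2 difference of 60 against 45 min was 0.56 ± 0.15 (limma adjusted p = 0.335). Thop1, another soluble oligopeptidase gene, differed by 0.60 ± 0.25 (adjusted p = 0.399).

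Of 9 genes of the kinin pathway, the array held 8, and 3 of those were bright enough to test. Kng1 encodes kininogen, the precursor that kallikrein cuts. Its day 3 kidneys had 3848, 3177 and 1849 after 0, 45 and 60 min of clamping, against 5625, 5122 and 3697 in those of day 1, so the clamped kidneys were below the 0 min kidney of their day. Its fitted log2 difference was -0.52 ± 0.15 for clamped against 0 min (limma adjusted p = 0.263) and -0.62 ± 0.17 for 60 against 45 min (adjusted p = 0.350). Mice have a close copy of this gene, Kng2, which the annotation does not list, and the probe set may hold signal of both. Cpm and Cpn1, genes of carboxypeptidases that trim kinins, differed by 0.49 ± 0.17 and 0.71 ± 0.24 between clamped and 0 min kidneys (adjusted p = 0.313 and 0.292). Cpn1 was dim, with 42.9, 43.2 and 93.4 after 0, 45 and 60 min on day 3, and 33.1, 79.3 and 81.7 on day 1. Its 0 min kidneys and the 45 min day 3 kidney lay below the filter level, so it passed on its mean through the other clamped kidneys. The kinin receptor genes Bdkrb1 (17.5 to 47.2) and Bdkrb2 lay below the filter by their means. Bdkrb2 had 22.4, 24.6 and 63.4 after 0, 45 and 60 min on day 3, and 10.5, 42.7 and 67.1 on day 1, and it was not tested.

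Among 10 other brush border hydrolase genes tested (of 11 listed), 4 had both 60 min kidneys below both 45 min kidneys and 1 had them above. Of all genes tested, 18.8% had them below and 25.5% above. The median log2 difference of the 10 hydrolase genes for 60 against 45 min was -0.39, beside -0.32 for the 7 genes. Mep1b and Mep1a, the subunits of the metalloprotease meprin, differed by -1.63 ± 0.32 and -0.61 ± 0.21 between 60 and 45 min (limma adjusted p = 0.306 and 0.370). The Mep1b intensities after 0, 45 and 60 min of clamping were 4123, 3607 and 902 in the day 3 kidneys and 2647, 3519 and 1433 in those of day 1. The ectonucleotidase gene Nt5e (-0.40 ± 0.38) and the dipeptidase gene Dpep1 (-0.30 ± 0.25) had these differences for clamped against 0 min, where Mep1b had -0.71 ± 0.28 and Mep1a -0.39 ± 0.18, each with overlapping groups. Of 14 scaffold and endocytic receptor genes of the brush border, 8 had both 60 min kidneys below both 45 min kidneys (18.8% of all genes). In 2 they were above (25.5% of all genes), and the median of the 14 was -0.19. The endocytic receptor genes Lrp2 (megalin) and Cubn (cubilin) differed by -0.57 ± 0.16 and -0.42 ± 0.14 for 60 against 45 min. The scaffold genes Ush1c and Eps8 differed by -0.45 ± 0.18 and -0.24 ± 0.19 for clamped against 0 min. Limma called 0 genes of either list in any contrast.

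**Figure D5:**
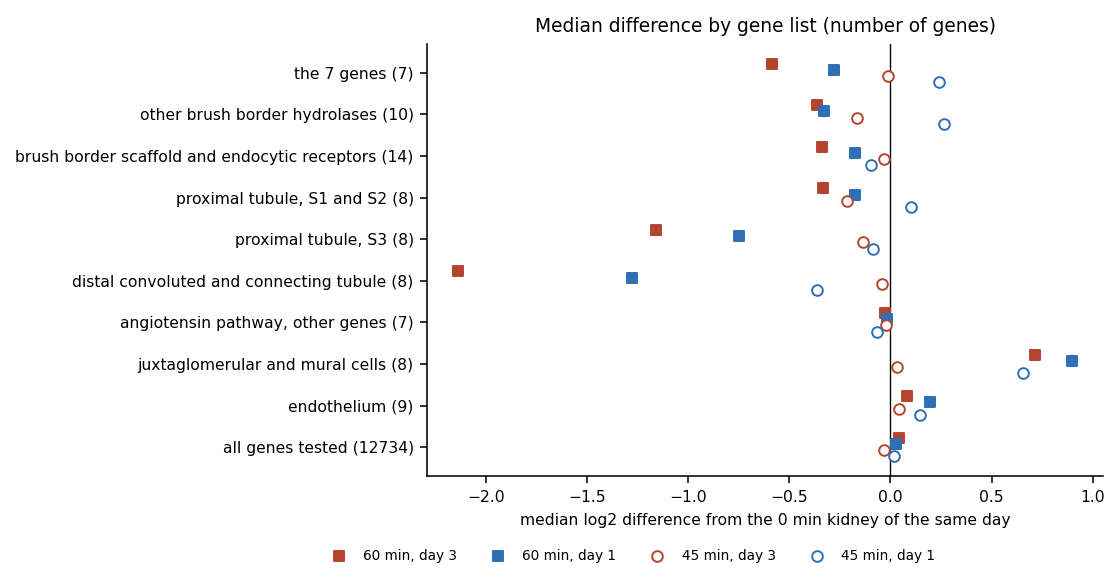
Median log2 difference in intensity plus 16 from that day's 0 min kidney (horizontal axis) for the 7 genes, for lists of related genes and cell type markers and for all genes tested, with the number of genes in brackets; squares are 60 min, open circles 45 min, red day 3 and blue day 1. At 60 min the 7 genes had medians of -0.58 on day 3 and -0.28 on day 1, the distal and connecting tubule list had -2.14 and -1.28, and all genes lay near 0.

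Marker lists of tubule cells that make these gene products also had median log2 differences below 0 for 60 against 45 min, and limma called 0 of the markers. For 8 markers of the S3 segment of the proximal tubule the median log2 difference of 60 against 45 min was -0.90, and all 8 were below 0. In 5 of these 8 both 60 min kidneys lay below both 45 min kidneys, as in 18.8% of all genes tested. Their summed intensity was 45166 at 60 min against 95839 at 45 min on day 3, and 52133 against 70680.4 on day 1. Cyp7b1, Slc22a7 and Slc22a13 differed most for clamped against 0 min (-2.58 ± 0.77, -1.41 ± 0.67 and -1.08 ± 0.24). For 8 markers of the S1 and S2 segments the median was -0.28, with 7 below 0, and the summed intensity was 66968 at 60 min against 81305 at 45 min on day 3, and 58575 against 74098 on day 1. Of these 8, 3 had both 60 min kidneys below both 45 min kidneys. On day 3, Slc5a2 (0.07), Slc5a12 (0.17) and Slc7a7 (0.30) were higher at 60 than at 45 min. The organic anion transporter genes Slc22a8 and Slc22a6 differed by -0.97 ± 0.17 and -0.67 ± 0.25 for clamped against 0 min, and Slc5a12 by 0.34 ± 0.24. The part of these cell types in the values of Agt, Ace, Mme, Enpep and Anpep was not tested.

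In the distal nephron, where Klk1 is made, 8 of 10 listed markers of the distal convoluted and connecting tubule were tested. All 8 had both 60 min kidneys below both 45 min kidneys, as 18.8% of all genes did, with a median of -1.39 for 60 against 45 min. They summed to 20185 at 60 min against 73282 at 45 min on day 3, and to 35996 against 63294 on day 1. Pvalb (-2.62 ± 0.32), Calb1 (-1.92 ± 0.32) and Slc8a1 (-1.45 ± 0.24) differed by more than Klk1 (-0.46 ± 0.17), a contrast between genes that was not tested. The part of these cells in the Klk1 values was not tested either.

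Of 10 markers of juxtaglomerular and mural cells, where renin is made, the array held 9, and 8 were bright enough to test. Gja5, a marker of the renin cells, was below the intensity filter (1.75 to 3.06). The 8 tested genes had a median log2 difference of 0.62 for clamped against 0 min, led by Tagln (1.54 ± 0.21), Acta2 (0.90 ± 0.20) and Pdgfrb (0.82 ± 0.18), genes of contractile and stromal cells. The list was not uniform: Myh11 (0.05 ± 0.26) and Rgs5 (-0.07 ± 0.24) were level, and Rgs5 was the 1 gene of the 8 below 0. For 4 tested genes of 5 on the macula densa list the median was -0.43. Oxgr1 was at -0.62 ± 0.16, Slc12a1 at -0.54 ± 0.13 and Nos1 at -0.31 ± 0.32. Ptgs2, the remaining tested gene, lay above 0 (0.09 ± 0.22), and Nos1 was above its 0 min kidney at 60 min on day 3 (0.41). Pappa2 lay below the filter (19.0 to 64.7). Oxgr1 and Slc12a1 (9060 to 19727) are not particular to the macula densa, so the median does not describe those cells alone. Endothelial markers, which bear on vascular Ace, had a median of 0.14 over 9 genes (Cdh5 0.50 ± 0.21, Kdr -0.42 ± 0.14 and Pecam1 0.38 ± 0.14), and they summed to 10019 at 60 min against 9286 at 45 min on day 3, and to 10649.9 against 11113 on day 1.

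Mme and Anpep are also carried by leukocytes and stromal cells. For clamped against 0 min, median log2 differences were 0.80 for 8 macrophage markers (Cd68 1.54 ± 0.47, Lyz2 1.5 ± 0.39, Ms4a7 1.11 ± 0.48) and 0.34 for 5 neutrophil markers (Csf3r 0.84 ± 0.24, S100a8 0.51 ± 0.17, Ngp 0.34 ± 0.13). They were 0.68 for 7 fibroblast markers (Col3a1 2.00 ± 0.38, Col1a1 1.99 ± 0.55, Mfap5 0.78 ± 0.27). Among the neutrophil markers, both 0 min kidneys of Csf3r (48.4 and 41.8) lay below the filter level. It passed on its mean through the clamped kidneys (72.9 to 155.9). Ngp was dim too (32.8 to 89.2), and its 45 min kidney was the brightest of each day. The macrophage markers summed to 9249, 13215 and 31448 after 0, 45 and 60 min of clamping in the day 3 kidneys, and to 4822, 7743 and 6290 in those of day 1. The part of these cells in the values of Mme and Anpep was not tested. For markers of other tissues that a kidney sample can carry, medians were -0.11 for 2 perirenal fat genes (Adipoq -0.12 ± 0.18, Retn -0.10 ± 0.15), 0.11 for 2 adrenal cortex genes (Cyp21a1 0.16 ± 0.16, Star 0.06 ± 0.30) and -0.90 for the 3 hepatocyte genes named beside Agt. Limma called 0 genes of these lists at an adjusted p under 0.05.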

How the data were processed

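Mouse kidney RNA was measured on 6 arrays, 1 per clamp time and day. Per the labels' protocols, RNA was extracted with Trizol and labelled with a 3' IVT kit, which copies from the 3' end. The authors deposited intensities, which are linear. Affymetrix Expression Console is named per the submitters' processing notes; how it summarised probes is not given in the sources used here. The mean after trimming 2% at each end was 500.003 on every array, so the deposited intensities had been scaled to a common target.

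The 45101 probe sets comprised 64 controls, 34945 with a single gene symbol, 932 with more than 1 and 9160 without any. Values were taken as log2(intensity + 16). Genes at or above the 40th percentile of non-control probe sets (log2 6.01) were tested, 12734 of 18193. Limma 3.58.1 in R 4.3.3 (lmFit, eBayes, Benjamini-Hochberg over all genes) fitted clamp time plus day. The change of the clamp effect came from 4 cells (0 min or clamped, by day). Fits were tested on simulated data. At a simulated log2 difference of 1 they called 23.9% of the changed genes for clamped against 0 min. The shares were 4.48% for 60 against 45 min and 43.3% for day 3 against day 1. For the change of the clamp effect it was 0% at simulated sizes of 1, 2 and 3, so 0 calls there carry no information. Single-array differences have no test.

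The 8 genes and the 16 lists (139 symbols, 126 on the array) were chosen with earlier results of these data known. Named from each pathway list were up to 4 tested genes, and from each cell type list up to 3, with the largest absolute difference between clamped and 0 min. Dim genes and second probe sets were added after their values were seen. Promoters are from RefSeq (GRCm38.p6). Alternatives were quantile normalization, median centring, a pseudocount of 1 or 64, no intensity filter, a stricter one (60th percentile), averaging the probe sets of a gene, a robust variance trend, clamping as 2 levels, and leaving out each array.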

Additional observations from a re-analysis of the deposited data

Results flagged for a closer look

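Enpep was the 1 gene of the 7 whose clamped kidneys all lay on one side of the 0 min kidney on 1 day and on the other side on the other day. On day 3 the 45 and 60 min kidneys differed from 0 min by -0.01 and -0.14 on the log2 scale, and on day 1 by 0.27 and 0.03. The change of the clamp effect, day 3 minus day 1, was -0.22 ± 0.33 (95% interval -1.08 to 0.63), and limma's test of that change gave an adjusted p = 1. Of all genes tested, 7.52% showed the same order. The 0 min intensities of Enpep were 9758 on day 3 and 7615 on day 1, a larger difference than any between clamped and 0 min kidneys of 1 day.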

How the results depend on the processing

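The 28 fitted differences of the 7 genes were recomputed under 15 other settings, which gave 385 values, and 350 kept their direction and their side of the threshold. The other 35 changed sign, each for a difference of at most 0.16 in size, and 25 of those came from leaving out an array. No gene of the 7 reached an adjusted p under 0.05 under any setting. The differences of 60 against 45 min kept their sign under all of these settings for Agt, Ace, Mme, Enpep, Anpep and Klk1, as did the clamped difference of Agt, Anpep and Klk1. With 1 array left out they ran from -0.99 to -0.60 for Anpep, -0.68 to -0.35 for Ace, -0.66 to -0.27 for Klk1 and -0.53 to -0.10 for Mme.

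Median centring turned the clamped difference to -0.0324 for Agtr1a, -0.0513 for Mme and -0.0535 for Enpep, day 3 minus day 1 to 0.0542 for Anpep and 0.0539 for Klk1, and the change of the clamp effect to -0.0412 for Agt and -0.0325 for Mme. Day 3 minus day 1 for Anpep was 0.0327 after quantile normalization and 4e-04 with a pseudocount of 64, and for Ace it was -0.046 when its probe sets were averaged. With 1 array left out, the clamped difference ran from -0.36 to 0.0315 for Ace, -0.16 to 0.28 for Agtr1a, -0.0683 to 0.15 for Mme and -0.0757 to 0.15 for Enpep. Day 3 minus day 1 ran from -0.11 to 0.13 for Ace, -0.0282 to 0.36 for Agtr1a, -0.11 to 0.12 for Anpep and -0.14 to 0.0776 for Klk1. The 60 against 45 min difference of Agtr1a ran from -0.30 to 0.44. The change of the clamp effect ran from -0.0345 to 0.12 for Agt, -0.59 to 0.44 for Anpep, -0.21 to 0.47 for Klk1 and -0.24 to 0.35 for Mme; without a 0 min array it could not be fitted.

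Over all genes, limma called 1 for clamped against 0 min after median centring and 75 with a robust variance trend, which also called 4 for day 3 against day 1. With 1 array left out, it called 0 to 202 for clamped against 0 min (202 without the 45 min day 3 array), 0 to 1 for day 3 against day 1, and 0 for 60 against 45 min. The cause was not tested. Differences of at least 2-fold among these genes numbered 1, then 2 after quantile normalization and 0 with a pseudocount of 64. Day was a term of the fit of clamp time, which compares arrays within a day. The labels carry no replicate numbers, so no further block was fitted.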
